A study of Mus musculus with 25 samples.

Results

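5xFAD mice treated with iβARK were set against wild-type (WT) mice that had received a control virus. The aim was to see which transcripts of the medial prefrontal cortex stood away from WT after treatment. The comparison took 16 of the 25 libraries of the series, chosen by their labels alone. They were 3 male and 4 female libraries of 5xFAD mice with AAV2/5 carrying iβARK-mCherry, and 4 male and 5 female libraries of WT littermates with AAV2/5 carrying mCherry. The male and the female difference were averaged with equal weight. For reference, the 4 male and 5 female libraries of 5xFAD mice with the mCherry virus are quoted beside them. The virus was given to mice aged 3 to 4 months and the cortex was collected after 45 days, so every group carried AAV and the mCherry protein. The 5xFAD iβARK mice differed from WT in genotype and in virus together, and no group was a WT mouse with iβARK or a mouse with an inactive form of the peptide, so the 2 factors cannot be told apart within this comparison. The viral promoter is not given in the sources used here. Whole tissue was sequenced, in which fewer cells of a type and less RNA per cell cannot be told apart. The labels number replicates without saying that each is a separate mouse, so the p-values measure the spread between these libraries.

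5xFAD mice carry human transgenes with familial Alzheimer mutations under the mouse Thy1 promoter and lay down amyloid plaques from an early age. Microglia around plaques switch on a programme of lipid handling, lysosomal and phagocytic genes that depends on the receptor Trem2. Astrocyte calcium signals are driven largely by Gq-coupled receptors, and iβARK, a fragment of the receptor kinase Grk2, holds Gq signalling back. Interferons, which are released by immune cells and virus-infected cells, induce antigen-presentation genes and antiviral enzymes in glia and other cells.

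The libraries held 45234060 to 71937315 counts. Levels are given as counts per 1e+06 counts (CPM, with library sizes scaled by the trimmed mean of M values), as the lowest, the median and the highest library of a group. Differences are log2 fold changes of 5xFAD iβARK over WT with their standard error, from edgeR's quasi-likelihood test over all 25 libraries, and a gene was called at a Benjamini-Hochberg adjusted p under 0.05 (written edgeR adjusted p). Xist, the RNA that silences an X chromosome, lay between 652 and 997 CPM in the 9 female libraries compared and at 0.214 CPM or less in the 7 male ones. Grk2, whose fragment makes up iβARK, did not differ (0.02 ± 0.05, edgeR adjusted p = 0.897), and whether reads of the construct were counted there is not given in the sources used here. Among the libraries, 3 stood apart by their striatal transcripts (male WT 1, female WT 2 and male iβARK 2) and 2 by their immunoglobulin transcripts (male iβARK 1 and female iβARK 4).

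After treatment, 1788 of 20971 tested genes (8.53 percent) differed from WT, of which 1369 (6.53 percent) were higher and 419 (2 percent) were lower. Higher genes differed by more: 793 of them exceeded a 2-fold and 234 an 8-fold difference, against 24 lower genes beyond 2-fold. Scaling by library totals gave 1604 higher and 185 lower genes, and an offset for each gene's GC content and length gave 1288 and 1245, so the number of lower genes depends on the scaling while the median log2 difference of all genes moved only between -0.06 and 0.02. For 461 genes (2.2 percent) all 7 iβARK libraries lay above all 9 WT libraries, and for 16 (0.0763 percent) all lay below. With the same test, untreated 5xFAD mCherry libraries differed from WT in 2095 genes (9.99 percent, with 5.98 percent higher and 4.01 percent lower) and treated from untreated 5xFAD libraries in 1157 (5.52 percent, with 3.01 percent higher and 2.51 percent lower). These 3 comparisons share libraries in pairs, so their values are set side by side below and no overlap between them is counted.

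Of the 12 higher genes with the smallest p, Thy1, described with the transgene below, ranked sixth, and several others are known from microglia. Itgax, the integrin CD11c of plaque-associated microglia (chr7:128129547-128150657 on GRCm38), had 0.0780, 0.328 and 0.673 CPM in the 9 WT libraries and 10.03, 15.2 and 48.8 CPM in the 7 iβARK libraries. Every iβARK library lay above every WT library, with the 3 male ones and female iβARK 3 at the low end. The difference was 5.85 ± 0.31 (edgeR adjusted p = 9.59e-12), beside 6.57 ± 0.31 for untreated 5xFAD over WT and -0.71 ± 0.23 for treated over untreated 5xFAD, the last with an edgeR adjusted p of 0.0696. Cst7, which encodes the protease inhibitor cystatin F (chr2:150570415-150578944), ran at 0, 0.0858 and 0.712 CPM in WT and 17.4, 29.99 and 81.95 CPM in iβARK libraries. The groups did not overlap, and the difference was 7.27 ± 0.42 (edgeR adjusted p = 2.47e-11). Against untreated 5xFAD libraries, which lay at 41.9, 72.8 and 136 CPM, Cst7 differed by -1.08 ± 0.28 (edgeR adjusted p = 0.0276), so the treated level lay between the untreated and the WT level. Trem2 itself (chr17:48346401-48354147) was at 7.40, 8.96 and 11.4 CPM in WT and 30.9, 47.8 and 104 CPM in iβARK libraries. All 7 lay above WT, 3 of them within the range of untreated 5xFAD and 4 below it, and the 2 differences were 2.45 ± 0.17 from WT (edgeR adjusted p = 6.58e-10) and -0.82 ± 0.17 from untreated 5xFAD (edgeR adjusted p = 0.00491).

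The other leading risers included receptors, enzymes and a chemokine. Ccl6, a chemokine of myeloid cells, rose by 3.46 on the log2 scale over WT (edgeR adjusted p = 1.90e-11) and differed from untreated 5xFAD by -1.20 (edgeR adjusted p = 2.18e-04). Clec7a, the β-glucan receptor Dectin-1, rose by 5.14, St14, a membrane serine protease, by 3.49, Mpeg1, a pore-forming protein of macrophages, by 2.82 and Slc15a3, a transporter of endolysosomes, by 2.75, with edgeR adjusted p of 4.89e-10 or less for each. None of these 4 passed the test between treated and untreated 5xFAD, where their log2 differences were -0.74, -0.35, -0.45 and -0.30. Fcgr1, the high-affinity IgG receptor, was at 2.51, 2.91 and 3.77 CPM in WT, 5.76, 9.45 and 11.3 CPM in untreated and 7.90, 10.5 and 14.3 CPM in treated 5xFAD libraries. It kept the treated libraries clear of all WT libraries, with a difference of 1.83 ± 0.13 (edgeR adjusted p = 1.69e-09). Hcar2, a receptor for hydroxybutyrate, stood at 0, 0.0429 and 0.169 CPM in WT and 1.12, 2.35 and 6.87 CPM in iβARK libraries, and its difference from WT was 5.43 ± 0.40 with and 5.45 ± 0.39 without treatment. Tent5c, an RNA poly(A) polymerase, rose by 3.19 (edgeR adjusted p = 9.63e-10).

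**Figure D1:**
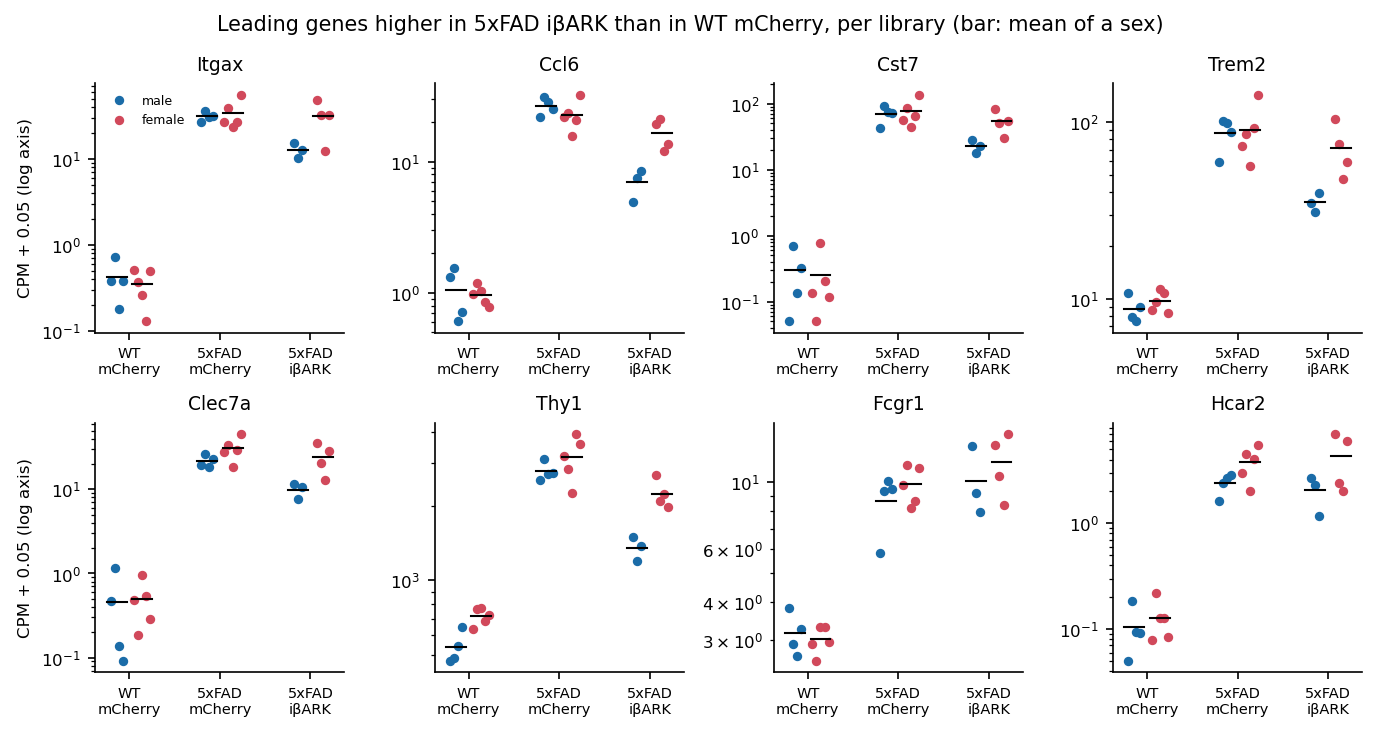
CPM plus 0.05 on a log axis for 8 leading risers in each library, grouped as WT mCherry, 5xFAD mCherry and 5xFAD iβARK, with males in blue and females in red and a bar at the mean of each sex. All 7 iβARK libraries lie above all 9 WT libraries in every panel, and for Itgax, Ccl6, Cst7, Trem2, Clec7a and Thy1 the male iβARK libraries lie below the male 5xFAD mCherry libraries.

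Of the 35 genes on a list of plaque-associated microglia, all were tested, and 29 were higher than WT and 0 lower, with a median log2 difference of 2.22 against -0.02 for all tested genes. In untreated 5xFAD 33 were higher, with a median of 2.36, and between treated and untreated 5xFAD 13 were lower and 1 was higher, with a median of -0.35. Most of these genes therefore differed from WT with and without treatment. Homeostatic microglial genes were also higher, 14 of 16 with a median of 0.95, among them Aif1, which encodes IBA1 (1.36), Olfml3 (1.12) and Csf1r, the survival receptor of microglia (1.05), each with an edgeR adjusted p of 1.29e-06 or less. P2ry12, the ADP receptor of resting microglia, had 25.9, 29.3 and 43.8 CPM in WT and 35.8, 42.2 and 58.5 CPM in iβARK libraries. Only 3 of 7 lay above all WT libraries, since male WT 1 was high, and the difference was 0.52 ± 0.12 (edgeR adjusted p = 0.00497).

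Most complement and lysosomal genes were higher than WT. Of 16 complement genes 12 were higher than WT, with a median of 1.46, beside 9 in untreated 5xFAD (median 1.08), and 3 were higher in treated than in untreated 5xFAD. C1qa and C1qc, chains of the opsonin C1q that share related sequence, rose by 2.16 and 2.05, C3ar1, the C3a receptor, by 2.48, and C4b by 2.74, with edgeR adjusted p of 1.08e-07 or less for each. C4b was at 17.7, 32.7 and 72.1 CPM in WT, 81.7, 118 and 272 CPM in untreated and 112, 222 and 499 CPM in treated 5xFAD libraries. C3, on which the complement pathways converge, ran at 0.193, 0.583 and 3.18 CPM in WT and 1.317, 11.1 and 129 CPM in iβARK libraries, with 5 of 7 above all WT libraries. C3 differed from WT by 5.52 ± 0.82 (edgeR adjusted p = 3.24e-05) after treatment and by 0.70 ± 0.79 (edgeR adjusted p = 0.645) without it. The treated difference was 4.35 without male iβARK 1, 4.32 without female iβARK 4 and 3.16 without both, 6.30 without male WT 2 and 4.21 with limma voom, where the adjusted p was 0.0322. Of 34 lysosomal genes 24 were higher than WT (median 0.53), beside 30 in untreated 5xFAD (median 0.82), and 13 were lower in treated than in untreated 5xFAD. Cd68, a lysosomal glycoprotein of phagocytes, had 3.84, 6.35 and 10 CPM in WT, 44, 66.1 and 109 CPM in untreated and 16.8, 34.01 and 77.3 CPM in treated 5xFAD libraries. The 7 treated libraries lay above WT, and 5 of them lay below all untreated ones (2.46 ± 0.21 from WT, edgeR adjusted p = 2.13e-08). Man2b1, a lysosomal mannosidase, rose by 1.27 and Ctss, a cathepsin of antigen-presenting cells, by 2.11, with edgeR adjusted p of 2.82e-08 or less for both.

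Thy1 and App also stayed above WT and lay below the untreated level. Thy1, whose promoter and untranslated exons drive the transgenes, had 472, 645 and 775 CPM in WT, 2260, 2820 and 3909 CPM in untreated and 1196, 1990 and 2666 CPM in treated 5xFAD libraries. The 7 treated libraries lay above all WT libraries, and 6 of 7 lay below all untreated ones, with 1506, 1196 and 1377 CPM in the 3 males and 2666, 2100, 2238 and 1990 CPM in the 4 females. Thy1 differed from WT by 1.5 ± 0.10 (edgeR adjusted p = 1.88e-10) and from untreated 5xFAD by -0.76 ± 0.10 (edgeR adjusted p = 1.31e-04). App rose by 0.33 over WT (edgeR adjusted p = 0.00236) with 4 of 7 libraries above all WT libraries, and it differed from untreated 5xFAD by -0.29 (edgeR adjusted p = 0.0180). Whether reads of the human transgenes were counted in these mouse genes is not given in the sources used here. On the plaque-associated and the lysosomal list, 13 genes each were also lower in treated than in untreated 5xFAD. Whether their levels are related to that of Thy1 was not tested. Of 21 genes on a list of amyloid precursor processing, 5 were higher and 2 lower, beside 6.53 and 2 percent of all genes. Besides Thy1 and App, Adam17, a shedding protease, rose by 0.42 (edgeR adjusted p = 6.96e-04), and Mme, which encodes the amyloid-degrading peptidase neprilysin, differed by -1.23 (edgeR adjusted p = 0.00118).

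Antigen presentation and interferon genes were further from WT in treated than in untreated 5xFAD libraries. Of 19 genes of MHC class I and its loading, 18 were higher than WT (median 2.39), beside 6 in untreated 5xFAD (median 0.67), and 15 were higher in treated than in untreated 5xFAD (median 1.06). B2m, the light chain of class I, was at 37.9, 55.9 and 66.5 CPM in WT, 98.8, 128 and 162 CPM in untreated and 139, 231 and 554 CPM in treated libraries. For the class I heavy chain H2-D1 the values were 28.9, 37.5 and 41.4, 54.4, 77.03 and 109 and 115, 193 and 539.8 CPM. All 7 treated libraries exceeded all 9 untreated ones for H2-D1 and 5 of 7 for B2m. The differences from WT were 2.78 ± 0.26 for H2-D1, 2.39 ± 0.22 for B2m, 2.86 ± 0.29 for H2-K1 and 3.85 ± 0.40 for Nlrc5, the transactivator of class I genes, with edgeR adjusted p of 2.11e-07 or less. The H2 genes are close copies, and how shared reads were divided among them is not given in the sources used here. All 8 genes of MHC class II were higher than WT (median 4.40), beside 5 in untreated 5xFAD (median 1.88). Cd74, the invariant chain of class II, had 206, 119 and 50.2 CPM in the 3 male and 43.6, 47.1, 9.61 and 368 CPM in the 4 female iβARK libraries, against 3.02 CPM or less in WT. Each treated library lay above all WT libraries, by widely different amounts, and Cd74 differed by 6.40 ± 0.70 (edgeR adjusted p = 3.94e-07) and the class II chain H2-Ab1 by 6.13 ± 0.69 (edgeR adjusted p = 6.84e-07). Without female iβARK 4 these were 5.49 for Cd74 and 5.15 for H2-Ab1, and without male iβARK 1 as well 5.23 and 4.85, with 2.18 for H2-D1, 2.17 for H2-K1 and 3.06 for Nlrc5, each still called.

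All 37 genes of a type I interferon list were tested, and all 37 were higher than WT (median 2.58), beside 8 in untreated 5xFAD (median 0.63). At 10 or more counts in every WT library stood 30 of the 37, and all 30 of these were called. Of 30 interferon gamma genes 29 were tested and 26 were higher (median 2.57), beside 5 in untreated 5xFAD (median 0.20). Between treated and untreated 5xFAD 36 type I and 23 interferon gamma genes were higher. Oasl2, an antiviral enzyme, had 70.03, 24.9 and 10.9 CPM in the 3 male and 23.4, 15.5, 32.8 and 76.4 CPM in the 4 female iβARK libraries, against 1.76, 2.71 and 3.84 CPM in WT. All 7 lay above WT, and male iβARK 1 and female iβARK 4 were highest. The difference was 3.77 ± 0.38 (edgeR adjusted p = 1.48e-07), or 2.98 without those 2 libraries, while untreated 5xFAD differed by 1.02 ± 0.35 (edgeR adjusted p = 0.0653). Slfn5, a growth regulator induced by interferon, was at 6.71, 8.40 and 10.2 CPM in WT and 14.4, 17.5 and 27.9 CPM in iβARK libraries, with all 7 above every WT and every untreated 5xFAD library (1.17 ± 0.12, edgeR adjusted p = 1.69e-07). Gbp3, a guanylate-binding protein, rose by 2.67 (edgeR adjusted p = 1.92e-07). Lgals3bp and Irf8 differed from WT with and without treatment. Lgals3bp, a secreted glycoprotein, rose by 2.98 and 1.99, and Irf8, a factor that microglia need, by 2.25 and 2.29.

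The promoters of the 4 genes with the smallest p on the 2 interferon lists are shown, since all 4 were higher than WT. Each is the 250 bases before the start of the gene in RefSeq on GRCm38.p6, written 5′ to 3′ on the gene's strand, with matches to the core of an interferon-stimulated response element (GAAA, 2 free bases and GAAA) or of a gamma-activated site (TTC, 3 free bases and GAA), searched on both strands, in capitals. The windows are chr11:118401960-118402209 on the minus strand for Lgals3bp, chr8:120736108-120736357 on the plus strand for Irf8, chr5:114896684-114896933 on the plus strand for Oasl2 and chr11:82951852-82952101 on the plus strand for Slfn5.
Lgals3bp: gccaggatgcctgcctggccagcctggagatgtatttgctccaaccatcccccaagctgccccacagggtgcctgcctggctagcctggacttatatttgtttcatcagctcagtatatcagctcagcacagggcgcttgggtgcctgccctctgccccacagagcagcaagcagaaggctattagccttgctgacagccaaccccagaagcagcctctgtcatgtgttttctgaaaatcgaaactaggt
Irf8: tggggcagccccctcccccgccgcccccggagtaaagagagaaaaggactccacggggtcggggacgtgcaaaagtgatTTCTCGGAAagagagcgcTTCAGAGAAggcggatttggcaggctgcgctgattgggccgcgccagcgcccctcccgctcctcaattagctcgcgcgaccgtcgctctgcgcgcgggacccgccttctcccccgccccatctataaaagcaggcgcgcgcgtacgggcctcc
Oasl2: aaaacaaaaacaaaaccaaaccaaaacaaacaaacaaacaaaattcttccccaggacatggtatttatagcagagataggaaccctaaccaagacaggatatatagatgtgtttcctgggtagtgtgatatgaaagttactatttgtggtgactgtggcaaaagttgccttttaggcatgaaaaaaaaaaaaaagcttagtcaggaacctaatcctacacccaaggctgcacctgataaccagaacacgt
Slfn5: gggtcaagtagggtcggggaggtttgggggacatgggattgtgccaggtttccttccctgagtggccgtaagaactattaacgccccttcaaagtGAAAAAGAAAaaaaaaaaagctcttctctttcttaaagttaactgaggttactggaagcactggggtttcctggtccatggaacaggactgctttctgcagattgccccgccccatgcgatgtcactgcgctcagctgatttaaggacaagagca
Slfn5 holds 1 match to the first motif and the window shown for Irf8 holds 2 to the second. Irf8 has 2 windows in the reference, of which the first is shown. Of the windows of 46 matched genes of both lists, 25 of 54 (46.3 percent) held the first and 11 (20.4 percent) the second, beside 2.98 and 7.02 percent of all 32851 promoter windows of that length. These matches are letters only and were not tested for binding.

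**Figure D2:**
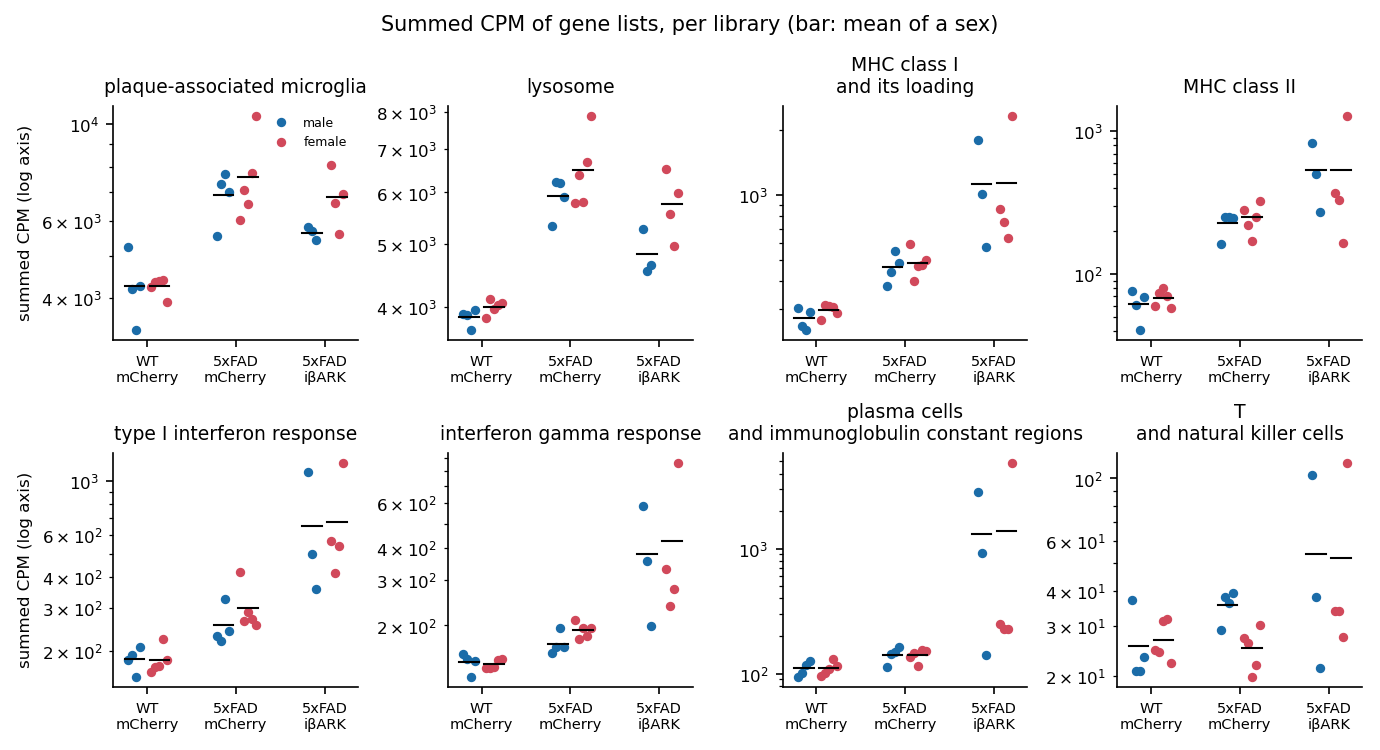
Summed CPM of 8 gene lists in each library on a log axis, grouped as WT mCherry, 5xFAD mCherry and 5xFAD iβARK, with a bar at the mean of each sex. The highest interferon, MHC and immunoglobulin sums are those of male iβARK 1 and female iβARK 4, while no plaque-associated or lysosome sum of an iβARK library exceeds the highest of untreated 5xFAD, and the ranges overlap.

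Transcripts of lymphocytes and of their attractants were present in treated libraries. Of 24 genes of plasma cells and immunoglobulin constant regions 23 were tested and 21 were higher than WT (median 4.57), beside 2 in untreated 5xFAD, and 18 were higher in treated than in untreated 5xFAD. Only 7 of these genes reached 10 counts in every WT library, and 6 of the 7 were called. With a stricter filter on low counts 9 were tested and 8 were higher, and the median was 1.77. Igkc, the kappa light-chain constant region, had 1133, 268 and 10.2 CPM in the male and 50.04, 46.9, 41.7 and 1713 CPM in the female iβARK libraries, against 1.92 CPM or less in WT. All 7 exceeded WT, by amounts that spanned from 10.2 to 1713 CPM within 1 treated group. Igkc differed by 9.75 ± 1.26 (edgeR adjusted p = 4.19e-06), Jchain, which joins antibody units, by 8.15 ± 0.98 (edgeR adjusted p = 1.51e-06) and Ighg2b by 10.51 ± 1.15 (edgeR adjusted p = 4.33e-07), while limma voom with sample weights gave 9.31, 6.71 and 10.83 with adjusted p of 0.0729, 0.105 and 0.153. Without male iβARK 1 and female iβARK 4 the edgeR differences were 7.23 for Igkc, 5.99 for Jchain and 9.68 for Ighg2b, each still called. Immunoglobulin genes share sequence, so the division of reads among them is uncertain. Cd79a, a B cell receptor subunit, was at 0.0979, 0.259 and 5.73 CPM in iβARK libraries and 0.0207, 0.101 and 0.193 CPM in WT. Its difference of 4.05 (edgeR adjusted p = 7.07e-04) was 2.27 without female iβARK 4 and 1.63 without male iβARK 1 as well, the last with an edgeR adjusted p of 0.0856.

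Of 30 genes of T and natural killer cells 28 were tested and 21 were higher than WT (median 3.41), beside 3 in untreated 5xFAD. No more than 7 of them had 10 counts in every WT library, of which 3 were called. With a stricter filter on low counts 6 were tested and 5 were higher, and the median was 1. Cd8a, the coreceptor of cytotoxic T cells, had 4.72, 1.41 and 0.928 CPM in the male and 0.685, 0.605, 0.0629 and 6.01 CPM in the female iβARK libraries, against 0.236 CPM or less in WT. Of the 7 libraries 6 lay above all WT libraries, and female iβARK 3 did not (4.87 ± 0.73, edgeR adjusted p = 3.45e-05). Cd8a differed by 3.85 without female iβARK 4 and by 3.37 without male iβARK 1 as well, both called. Cd3e, a T cell receptor subunit, was listed at 0 in 6 of 9 WT libraries and at 0.0314, 0.216 and 3.89 CPM in iβARK libraries. Cd4 had 0.269, 0.719 and 13.6 CPM in WT, the highest in male WT 1, and did not pass the test (0.75 ± 0.61, edgeR adjusted p = 0.520), but it did without that library (0.75 became 2.13, edgeR adjusted p = 0.00483). Pdcd1, the checkpoint receptor PD-1, was higher than WT in untreated (4.66 ± 0.42) and in treated 5xFAD (4.76 ± 0.43), and the 2 differed by 0.11 ± 0.34 (edgeR adjusted p = 0.878). Without the 2 iβARK libraries richest in Igkc, 11 plasma cell genes and 10 T cell genes were called higher. The summed CPM of the T cell list was 20.8 to 37.1 in WT, 19.9 to 39.3 in untreated 5xFAD and 21.3 to 113 in treated 5xFAD. By this sum, which the most abundant members set, most treated libraries lay within the range of the others. The mean of log2 CPM plus 0.5 over the list weighs the members alike. It was -0.395 to -0.132 in WT, -0.267 to -0.0706 in untreated and -0.138 to 1.69 in treated libraries. By this mean, only female iβARK 3 of the treated libraries did not exceed every WT and untreated library.

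Of 30 cytokines and chemokines 24 were tested, and 19 were higher than WT (median 3.27), beside 9 in untreated 5xFAD. Only 8 of them had 10 counts in every WT library, of which 4 were called. Ccl3, a chemokine of plaque-associated microglia, was at 0, 0.0364 and 0.185 CPM in WT and 1.02, 2.80 and 6.33 CPM in iβARK libraries. It lay above WT in all 7 (5.68 ± 0.43, edgeR adjusted p = 2.25e-09) and differed from untreated 5xFAD by -1.09 (edgeR adjusted p = 0.0320). Il1a, an interleukin of activated microglia, differed from WT by 2.16 ± 0.27 (edgeR adjusted p = 2.22e-06) and from untreated 5xFAD by -0.30 ± 0.24 (edgeR adjusted p = 0.480). Cxcl10, which attracts T cells, had 0, 0.116 and 1.15 CPM in WT, 0.159, 0.571 and 1.14 CPM in untreated and 0.281, 3.63 and 16.6 CPM in treated libraries. It was called in the treated comparison (4.56 ± 0.76, edgeR adjusted p = 1.29e-04) and not in the untreated one (1.13 ± 0.74, edgeR adjusted p = 0.381), and treated exceeded untreated 5xFAD by 3.43 ± 0.70 (edgeR adjusted p = 0.00491). Its difference from WT was 3.67 without male iβARK 1, 3.24 without female iβARK 4 as well and 5.34 without male WT 2, each called. With a stricter filter on low counts 11 cytokines were tested and 7 were called, all higher, and the median was 0.84.

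Genes of reactive astrocytes and general astrocyte markers were taken as separate lists. Of 34 reactive astrocyte genes 33 were tested and 20 were higher (median 1.18), beside 13 higher and 2 lower in untreated 5xFAD (median 0.52), and 7 were higher and 0 lower in treated than in untreated 5xFAD (median 0.31). Gfap, the intermediate filament of reactive astrocytes, had 98.95, 153 and 301 CPM in WT, 679, 1047 and 2134 CPM in untreated and 571, 776 and 1679 CPM in treated 5xFAD libraries. All 7 treated libraries lay above WT, 5 of them within the untreated range, and Gfap differed from WT by 2.28 ± 0.20 (edgeR adjusted p = 2.82e-08) and from untreated 5xFAD by -0.44 ± 0.20 (edgeR adjusted p = 0.187). Serpina3n, a protease inhibitor of reactive astrocytes, rose by 1.75 (edgeR adjusted p = 1.06e-05). Several genes on this list, such as H2-D1 and C4b, are also interferon, MHC or complement genes. Of 24 astrocyte markers 1 was higher, beside 6.53 percent of all genes, and the median was 0.05. It was Aqp4, the water channel of astrocyte endfeet (0.52 ± 0.13, edgeR adjusted p = 0.0102). Aldh1l1, a folate enzyme specific to astrocytes, was at 41.4, 53.9 and 68.9 CPM in WT and 49.9, 58.9 and 71.3 CPM in iβARK libraries, which overlapped.

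For the pathway that iβARK acts on, 40 genes of Gq and calcium signalling were tested, and 2 were higher and 6 lower than WT (median -0.09), beside 6.53 and 2 percent of all genes. Chrm3, a Gq-coupled muscarinic receptor, had 57.3, 48.7 and 52.8 CPM in the male and 75.5, 61.3, 73.2 and 61.3 CPM in the female iβARK libraries. WT libraries lay at 64.7, 97.9, 84.1 and 82.9 CPM in males and 77.8, 78.3, 97.1, 109 and 126 CPM in females, and untreated 5xFAD libraries at 65.3, 85.2 and 120.0 CPM. Within each sex the treated and WT values did not overlap, and Chrm3 differed by -0.58 ± 0.11 from WT (edgeR adjusted p = 9.87e-04) and by -0.54 ± 0.11 from untreated 5xFAD (edgeR adjusted p = 0.00714), while untreated 5xFAD and WT differed by -0.05 ± 0.11 (edgeR adjusted p = 0.845). Ryr2, a calcium release channel, differed by -0.36 (edgeR adjusted p = 0.00955). Plcb2, a phospholipase C of blood and microglial cells, rose by 1.22 (edgeR adjusted p = 1.26e-06) and Orai1, a store-operated calcium channel, by 0.54 (edgeR adjusted p = 0.00354). Gnaq, the Gq subunit that iβARK binds, and Itpr2, the main inositol trisphosphate receptor of astrocytes, did not pass the test (-0.09 ± 0.07 and 0.18 ± 0.10, edgeR adjusted p = 0.454 and 0.285). The 6 lower calls became 2 with library totals and 3 with no filter.

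**Figure D3:**
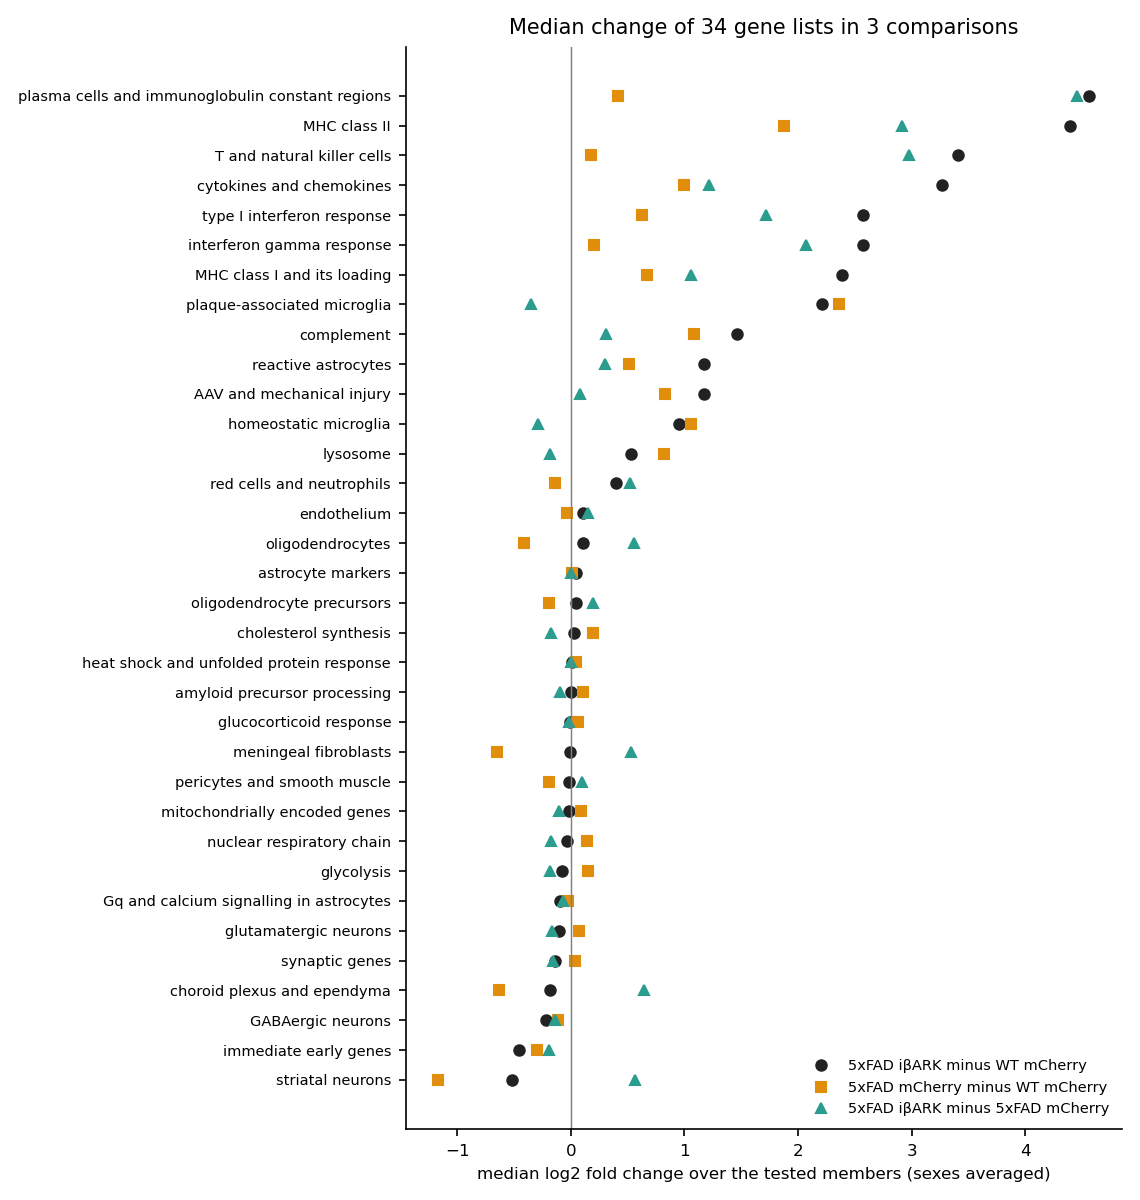
Median log2 fold change over the tested members of 34 gene lists, sexes averaged, for 5xFAD iβARK minus WT mCherry (black circles), 5xFAD mCherry minus WT mCherry (orange squares) and 5xFAD iβARK minus 5xFAD mCherry (green triangles). Immunoglobulin, MHC class II, T cell and interferon lists have their black circles far to the right of the orange squares, plaque-associated microglia has both near 2.22 and 2.36, and immediate early genes have all 3 markers to the left of 0, while for striatal neurons the circle and square lie to the left and the triangle to the right.

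Lower genes were led by activity-regulated transcripts. Dusp1, a phosphatase of MAP kinases (chr17:26505590-26562128), had 49.4, 60.7 and 71.4 CPM in WT, 29.1, 40.2 and 59.6 CPM in untreated and 18.7, 27.9 and 38.6 CPM in treated 5xFAD libraries. All 7 treated libraries lay below all 9 WT libraries and 4 of them below all untreated ones. Dusp1 differed by -1.03 ± 0.11 from WT (edgeR adjusted p = 2.27e-07), with -0.58 ± 0.10 for untreated 5xFAD (edgeR adjusted p = 2.52e-04) and -0.45 ± 0.11 for treated over untreated 5xFAD (edgeR adjusted p = 0.0141). Fos, a subunit of the AP-1 factor, was at 35.6, 53.8 and 84.9 CPM in WT and 15.1, 21.3 and 50.97 CPM in iβARK libraries, with 6 of 7 below all WT libraries (-1.15 ± 0.16, edgeR adjusted p = 1.61e-05). Junb, its partner, differed by -0.92 ± 0.12 (edgeR adjusted p = 7.63e-06) and Nr4a1, a nuclear receptor induced by neuronal activity, by -0.91 ± 0.13 (edgeR adjusted p = 1.17e-05). For both, untreated 5xFAD lay between, with log2 differences from WT of -0.46 and -0.45.

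Of 32 immediate early genes all were tested, and 17 were lower than WT and 1 higher (median -0.46), beside 12 lower and 1 higher in untreated 5xFAD (median -0.30) and 5 lower between treated and untreated (median -0.19). Arc, which acts in synapses, had 156, 392 and 796 CPM in WT and 97.7, 164 and 395 CPM in iβARK libraries. Only 3 of 7 lay below all WT libraries, and Arc differed by -0.95 ± 0.21 (edgeR adjusted p = 0.00274). Egr2, a zinc-finger factor, differed by -1.18 ± 0.24 (edgeR adjusted p = 0.00166) and Npas4, a factor specific to neuronal activity, by -0.88 ± 0.24 (edgeR adjusted p = 0.0181), the latter not past the threshold without male iβARK 2 (edgeR adjusted p = 0.0703). Atf3, a stress-induced factor, was the 1 gene that rose (1.36 ± 0.27, edgeR adjusted p = 0.00129). Egr1 (-0.48 ± 0.18) and the neurotrophin Bdnf (-0.16 ± 0.14) did not pass the test. Apold1, an early-response gene of endothelium, was at 10.8 ± 3.65 CPM in male WT (SD, n = 4), 4.56 ± 0.670 CPM in female WT (SD, n = 5), 3.47 ± 1.16 CPM in male iβARK (SD, n = 3) and 3.06 ± 0.357 CPM in female iβARK libraries (SD, n = 4). It differed by -1.11 (edgeR adjusted p = 1.79e-05). The clock gene Per1 (-0.49), the kinase Sik1 (-0.75) and the small GTPase Arl4d (-0.66) were lower too, with edgeR adjusted p of 6.98e-05 or less. Per1 did not pass in untreated 5xFAD (-0.15, edgeR adjusted p = 0.193) and differed between treated and untreated (-0.34, edgeR adjusted p = 0.00894).

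**Figure D4:**
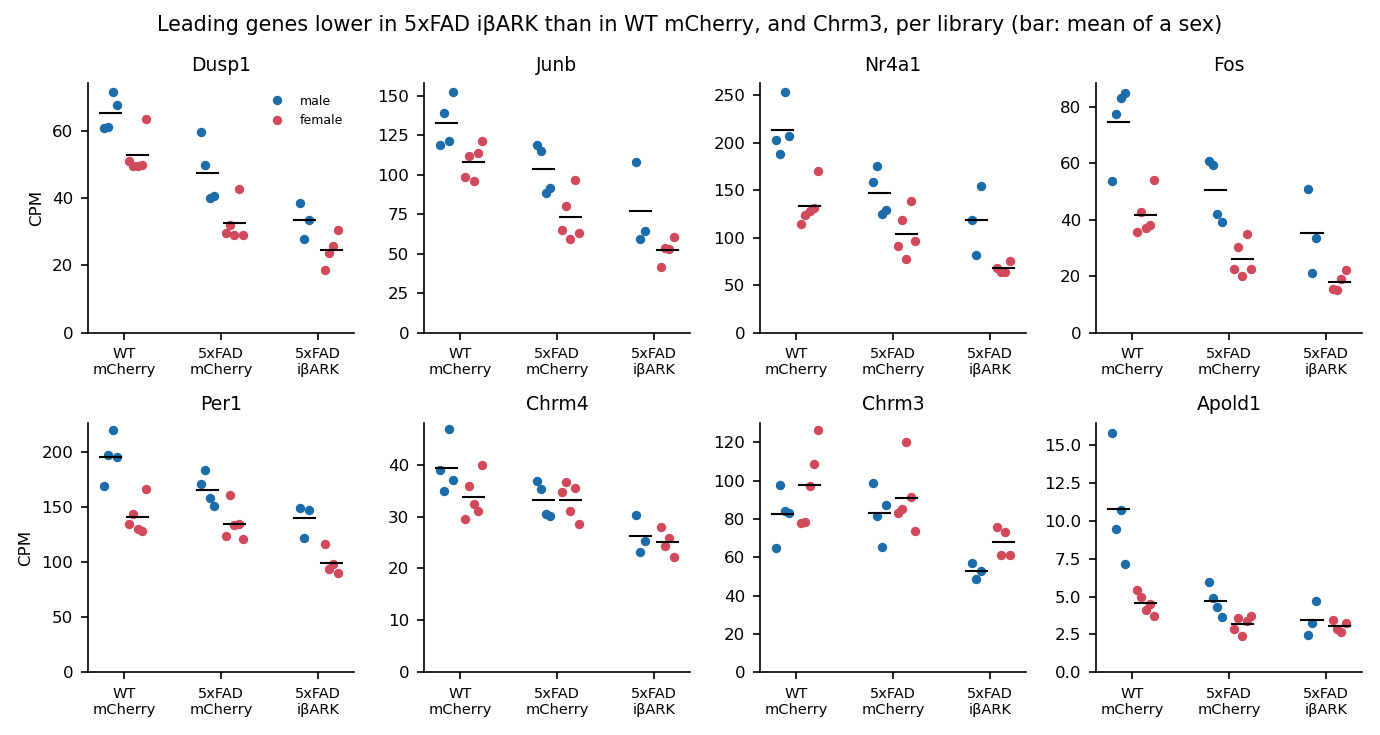
CPM on a linear axis from 0 for 7 leading lower genes and Chrm3 in each library, with a bar at the mean of each sex. Within each sex the mean of WT is highest and that of iβARK lowest for Dusp1, Junb, Nr4a1, Fos and Per1, while for Chrm4 and Chrm3 untreated 5xFAD overlaps WT.

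Calls among neuronal genes differed between lists, with 6 of 22 GABAergic and 0 of 18 glutamatergic genes, beside 8.53 percent of all genes. Chrm4, a Gi-coupled muscarinic receptor, was at 29.4, 35.95 and 46.8 CPM in WT, 28.5, 34.7 and 36.9 CPM in untreated and 22.1, 25.2 and 30.4 CPM in treated 5xFAD libraries. In 6 of 7 treated libraries it lay below all WT libraries and in 6 of 7 below all untreated ones. It differed by -0.51 ± 0.08 from WT (edgeR adjusted p = 8.47e-05) and by -0.37 ± 0.08 from untreated 5xFAD (edgeR adjusted p = 0.00854). Lypd6, a modulator of acetylcholine receptors, was lower in all 7 libraries than in any WT library (-0.33 ± 0.06, edgeR adjusted p = 1.50e-04). Of 22 genes of GABAergic neurons 5 were lower and 1 higher (median -0.21), beside 2 percent lower and 6.53 percent higher over all genes. Erbb4, a neuregulin receptor of interneurons, was at 108, 111 and 152 CPM in WT and 74.8, 91.8 and 102 CPM in iβARK libraries, which did not overlap (-0.42 ± 0.08, edgeR adjusted p = 5.51e-04). Gad1 and Gad2, the enzymes that make GABA, differed by -0.39 ± 0.09 and -0.35 ± 0.09 (edgeR adjusted p = 0.00675 and 0.00910), and without the 2 iβARK libraries richest in Igkc by -0.32 each (edgeR adjusted p = 0.0667 and 0.06). Without male iβARK 3, Gad2 was at -0.29 (edgeR adjusted p = 0.0552). The summed list of striatal neurons, which are also GABAergic, was 425, 479 and 1932 CPM in WT and 407, 460 and 926 CPM in iβARK libraries. In untreated 5xFAD libraries it was 403, 435 and 467 CPM. Of its 20 genes 10 were lower in untreated 5xFAD than in WT (median -1.17), beside 4.01 percent of all genes. In treated 5xFAD none of the 20 was called against WT by edgeR (median -0.52). Without the 3 libraries richest in striatal transcripts, Gad1, Gad2 and Erbb4 were still called lower than WT. Beyond that refit, the part of striatal neurons in the GABAergic values was not tested. Of 18 glutamatergic genes 0 were called by edgeR over all genes, among them Slc17a7, the vesicular glutamate transporter of cortex (-0.09 ± 0.07), and of 34 synaptic genes 3 were lower, a number that ran from 0 to 9 when 1 library was left out, the 9 without male WT 1. Of 22 oligodendrocyte genes 0 were called (median 0.11).

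The differences were also taken within each sex, which share no libraries. Males gave 803 called genes (3.83 percent), of which 657 (3.13 percent) were higher and 146 (0.696 percent) lower, and females 1363 (6.5 percent), of which 1108 (5.28 percent) were higher and 255 (1.22 percent) lower. Of the higher genes 525 were shared, 79.9 percent of the male and 47.4 percent of the female list, and of the lower genes 18, or 12.3 and 7.06 percent. Itgax, Cst7 and Ccl6 were among the 5 risers with the smallest p in both sexes. Itgax differed by 5.06 ± 0.45 in males and 6.65 ± 0.41 in females, and Ccl6 by 2.77 ± 0.29 and 4.16 ± 0.26, each with an edgeR adjusted p of 6.30e-06 or less. Dusp1 differed by -0.97 and -1.10 (edgeR adjusted p = 8.42e-04 and 9.25e-06). Lower genes of males included Pcdhga8, a protocadherin (-0.78 in males and -0.07 in females), Sytl2, a vesicle-tethering protein (-0.55 and -0.09), and Tob2, an antiproliferative factor (-0.56 and -0.12). Phf13, a chromatin reader, was lower in females (-0.47, edgeR adjusted p = 2.67e-04) and at -0.24 in males (edgeR adjusted p = 0.166).

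A test of the female minus the male difference called 0 of 20971 genes with edgeR, 2032 genes were at an unadjusted p under 0.05, and the DESeq2 Wald test called 68 and limma voom 4. The smallest p belonged to Hspe1, the mitochondrial chaperonin HSP10, with 0.39 ± 0.10 in males and -0.40 ± 0.09 in females (edgeR adjusted p of the difference = 0.0516). Its mean was 25.9 ± 1.18 CPM in male WT (SD, n = 4) and 33.8 ± 2.15 CPM in female WT (SD, n = 5), against 33.9 ± 4.83 CPM in male iβARK (SD, n = 3) and 25.6 ± 0.933 CPM in female iβARK libraries (SD, n = 4). So the WT libraries of the sexes lay apart as much as the treated ones. Kcnj2, an inward rectifier potassium channel, had -0.24 ± 0.16 in males and 0.92 ± 0.14 in females, and Bach2, a transcriptional repressor, -0.27 ± 0.10 and 0.46 ± 0.09 (edgeR adjusted p of the difference = 0.0849 for both). Spp1, osteopontin of plaque-associated microglia, was at 5.37, 4.92 and 4.77 CPM in male and 49.3, 40, 10.1 and 41.5 CPM in female iβARK libraries, where female iβARK 3 lay nearer the males (edgeR adjusted p of the difference = 0.205). Plau, the urokinase protease, differed from WT by 1.23 ± 0.28 in males and 2.91 ± 0.25 in females (edgeR adjusted p of the difference = 0.205). Thy1 had a mean of 1360 ± 156 CPM in male (SD, n = 3) and 2249 ± 296 CPM in female iβARK libraries (SD, n = 4), and its part in the sex values was not tested.

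Some of the lower genes lay close together. On chromosome 3 between 30 and 70 Mb, a segment chosen after the calls were seen, 28 of 239 tested genes (11.7 percent) were lower than WT. On the rest of chromosome 3 it was 13 of 834 (1.56 percent). Over all genes with a position outside the segment, those 834 included, it was 385 of 20302 (1.9 percent). In untreated 5xFAD 39 of the 239 were lower than WT (16.3 percent), and between treated and untreated 5xFAD 6 (2.51 percent). By sex, 27 were lower in males (11.3 percent) and 4 in females (1.67 percent). Among the 28, which include 10 gene models, were Tiparp, a poly(ADP-ribose) polymerase (-0.49), Plch1, a phospholipase C (-0.54), Jade1, a chromatin scaffold (-0.30), Sclt1, a centriole protein (-0.40), Slc7a11, the cystine transporter (-0.58), and Mme.

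The gene model 5031434O11Rik (chr3:51560035-51567117), picked after its values were seen, had 1.25, 0.840 and 1.08 CPM in male and 0.995, 3.99, 3.19 and 3.34 CPM in female iβARK libraries. WT libraries lay at 6.92, 7.38, 5.51 and 4.63 CPM in males and 4.35, 5.05, 3.39, 2.73 and 5.07 CPM in females. The 3 males and female iβARK 1 lay below every WT library, and the other 3 females lay within the female WT range. Gm43255 (chr3:36203289-36205623), chosen the same way, moved in the opposite direction, with 0.762, 1.01 and 1.08 CPM in male iβARK libraries and 0.0364, 0.0841, 0.0643 and 0.0414 CPM in male WT. Mme was at 5.63, 6.81 and 19.9 CPM in WT, the highest in male WT 1, which is rich in striatal transcripts, and at 1.74, 3.27 and 5.56 CPM in iβARK libraries, which did not overlap. The 5xFAD transgenes are integrated on chromosome 3, and the part of sequence inherited with them in these values was not tested. Slc7a11 did not pass without the 3 libraries richest in striatal transcripts (-0.45, edgeR adjusted p = 0.0989).

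**Figure D5:**
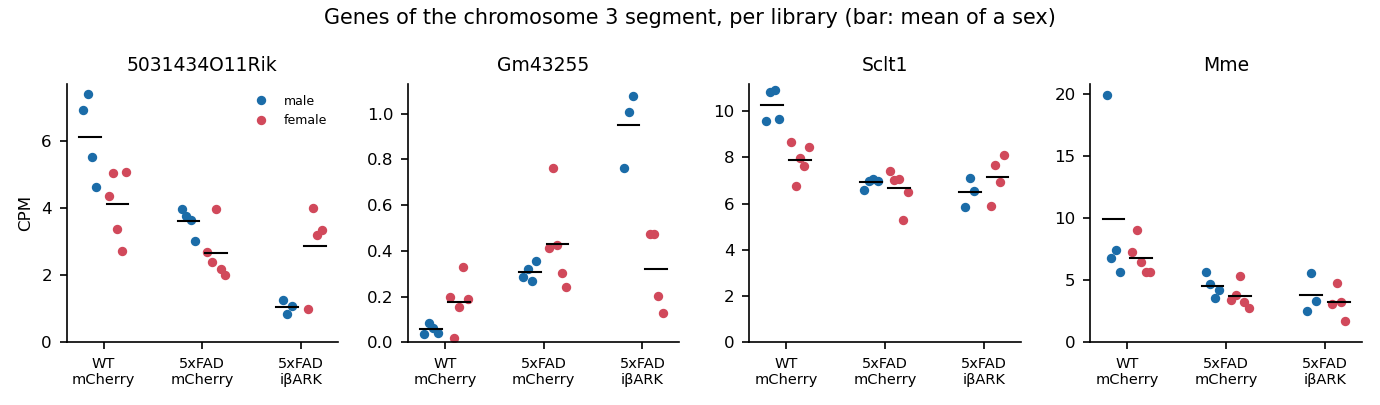
CPM on a linear axis from 0 for 4 genes of the chromosome 3 segment in each library, with a bar at the mean of each sex. For 5031434O11Rik the 3 male iβARK libraries and 1 female one lie near 1 CPM, for Gm43255 the male iβARK libraries lie highest, and Sclt1 and Mme are lower in both 5xFAD groups than in most WT libraries.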

How the data were processed

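Bulk polyA RNA was measured in 25 libraries, made with a directional kit per the labels' protocols, of which 16 are compared here. The authors deposited unnormalised counts, as whole numbers per gene symbol (55291 symbols, 17017 of them at 0 in every library). Per the submitters' processing notes, fastp 0.23.2, Bowtie2 2.4.5, HISAT2 2.2.1, RSEM, DESeq2 1.32.0 and the build GRCm38 are named, without their roles. The aligner behind the counts, the strandedness of counting and the gene models used are not stated there, so overlapping and antisense genes cannot be told apart. Low counts were more often even (52320 counts of 2 and 35698 of 1), and the reason was not tested.

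The filter filterByExpr (at least 10 counts in a group's worth of libraries, 15 in total) left 20971 genes. edgeR 4.0.16 (R 4.3.3) fitted 1 mean for each of 6 groups with TMM scaling, so that all 25 libraries share 1 estimate of the spread (19 residual degrees of freedom). The quasi-likelihood F test was applied to the mean of the male and the female contrast, with Benjamini-Hochberg adjustment over all tested genes. Coordinates are those of GENCODE M21 (GRCm38) and promoters those of RefSeq (GRCm38.p6).

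The 34 gene lists, the genes and the alternatives were chosen with earlier results of these data known. The text names the label checks, the 12 genes of smallest p in either direction, 5 in either direction for each sex and for the sex difference, and up to 4 members of a list by p or for a role the text needs. Gene models are counted without names, apart from 2 chosen after their values were seen, and some genes are not reported here. In a simulation with 67, 67 and 66 changed genes of 20524, at 1.5, 2 and 4-fold, the averaged comparison found 68.7, 86.6 and 98.5 percent and made 8 false calls. Its changed genes left out those of lowest mean level, took either direction at random and changed alike in both sexes. The spread was the one fitted to these libraries. The real calls are more numerous and mostly higher, so these figures need not hold for them. Alternatives were other scalings (DESeq2 size factors, library totals, GC content and length, known for 97.9 percent of genes), no or a stricter filter, the DESeq2 1.42.0 Wald test, limma 3.58.1 voom with sample weights, the 16 libraries alone, a replicate block, and libraries left out singly or for their striatal or Igkc transcripts.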

Additional observations from a re-analysis of the deposited data

Results flagged for a closer look

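In a group of 4 or 5 libraries, a named gene was singled out where 1 library lay far from the others of its group. This was tested in 363 combinations of gene and group and found 19. Chance alone gives about 1 in 20, so the number found was about what chance gives. The libraries below are therefore named for their values only.

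Female iβARK 4 stood out for 4 genes. Igkc was at 1710 CPM beside 41.7 to 50.04 CPM in the other 3 libraries, Cd79a at 5.73 CPM, Nlrc5 at 38.1 CPM beside 6.16 to 8.06 CPM, and Ly6a, a surface protein of endothelium, at 40.4 CPM beside 16.8 to 18.4 CPM. Female iβARK 3 was lowest for Spp1 (10.1 CPM beside 40 to 49.3 CPM) and for Il1a (0.472 CPM beside 1.26 to 1.5 CPM). Female iβARK 1 was lowest for Npas4 (7.47 CPM beside 21.4 to 25.2 CPM) and for 5031434O11Rik (0.995 CPM beside 3.19 to 3.99 CPM). Female iβARK 2 was lowest for Bdnf at 20.6 CPM and highest for Atp5md, an ATP synthase subunit, at 48.7 CPM.

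Among female WT libraries, number 5 was highest for Dusp1 (63.6 CPM beside 49.4 to 51.1 CPM) and H2-DMb1, a class II loading protein (0.976 CPM). Number 2, which is rich in striatal transcripts, was lowest for Xist (652 CPM beside 854 to 931 CPM) and highest for Gad1 (323 CPM) and Gad2 (244 CPM). Among male WT libraries, number 1 was highest for P2ry12 (43.8 CPM beside 25.9 to 26.7 CPM) and number 3 lowest for Aif1 (2.64 CPM beside 4.22 to 4.41 CPM). Number 2 was lowest for the T cell gene Cd5 (0 CPM) and highest for Cd3e (0.0505 CPM), both resting on a few counts.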

How the results depend on the processing

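The averaged comparison called 1788 genes, and between 1347 (without female iβARK 4) and 2401 (without male WT 1) when 1 library was left out. No alternative moved that count by more than 1.5 times, which was 1408 without male iβARK 1 and female iβARK 4, the libraries richest in Igkc, and 1806 without the 3 richest in striatal transcripts. The male comparison called 803 genes, 376 with limma voom and 457 (without male iβARK 1) to 1148 (without male WT 1) with 1 library left out, and 469 without male WT 3. The female comparison called 1363 genes, and 839 (without female iβARK 4) to 1487 (without male iβARK 3) with 1 library left out. GC content and length offsets split the female calls into 1042 higher and 741 lower. The sex difference called 0 genes, 1 with the stricter filter, 68 with the DESeq2 Wald test, 4 with limma voom, and 0 to 19 with 1 library left out, the 19 without male WT 4. With the replicate number as a block the counts were 1613, 763, 1211 and 0 in the same order. Of 7 same-numbered pairs 2 had a correlation of deviations over 0.1, from -0.33 to 0.331 over the 7. For 3 of 7 iβARK libraries the highest correlation was with the WT library of their own number. These correlations cannot decide whether the numbers pair the libraries, since deviations from means of so few libraries also carry other differences between them. Among lists with more than 8 calls, the plasma cell list (21) fell to 8 with the stricter filter, 12 with limma voom and 11 without the 2 libraries richest in Igkc. The T cell list (21) fell to 5 with the stricter filter, 11 without those 2 libraries (10 higher and 1 lower) and 13 without female iβARK 4, and cytokines (19) to 7 with the stricter filter. The AAV and injury list (11) fell to 7 without the 2 libraries richest in Igkc. The plaque-associated list had 27 to 30 calls, type I interferon 36 to 37, MHC class II 8 and immediate early genes 15 to 23. Gq signalling ran from 4 (library totals) to 12 (GC offsets), GABAergic genes from 4 to 10 and the respiratory chain from 0 to 12, the upper end with GC offsets for both. Calls on the chromosome 3 segment, a count added after seeing the data, ran from 23 to 34. Of the genes named for the averaged comparison, Grk2 (-0.08 to 0.06) and Xist (-0.55 to 0.12), neither of them called, changed sign under these alternatives, and the others did not. Igkc, Jchain, Ighg2b, Npas4, Slc7a11, Gad1, Gad2 and Cd79a lost their call under at least 1 of them, and Cd4 and Egr1 gained one. Depth limits the immunoglobulin, T cell and cytokine genes most, since few of them reach 10 counts in every WT library.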

Other observations

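Some genes of lists outside the inflammatory and neuronal ones also differed from WT. Over all tested genes 6.53 percent were higher and 2 percent lower. Of 21 glycolysis genes 4 were higher (median -0.08), among them Hk2, the inducible hexokinase, at 3.28, 4.41 and 6.68 CPM in WT and 8.98, 11.1 and 19.8 CPM in iβARK libraries. These did not overlap (1.36 ± 0.16, edgeR adjusted p = 1.71e-06). Slc16a3, a lactate transporter, rose by 0.76 (edgeR adjusted p = 8.14e-04). In untreated 5xFAD 7 glycolysis genes were higher and 1 lower, and 9 were lower in treated than in untreated 5xFAD. Of 23 cholesterol synthesis genes 1 was higher than WT, beside 12 in untreated 5xFAD, and 6 were lower in treated than in untreated 5xFAD. Of 67 nuclear genes of the respiratory chain 0 were called by edgeR with the sexes averaged (12 lower with GC content and length offsets), beside 13 higher in untreated 5xFAD. The medians of the sexes had opposite signs. In males 1 gene was higher (median 0.18), beside 3.13 percent of all genes. In females 8 were lower (median -0.21), beside 1.22 percent of all genes. The female minus male difference was called for 0 of them (median -0.41). Between treated and untreated 5xFAD 8 were lower, beside 2.51 percent of all genes.

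Of 16 glucocorticoid-responsive genes 4 were higher and 3 lower, beside 6.53 and 2 percent of all genes. Fkbp5, a chaperone of the glucocorticoid receptor, was at 23.2, 25.6 and 29.6 CPM in WT and 34.9, 37.9 and 65.5 CPM in iβARK libraries, which did not overlap (0.68 ± 0.15, edgeR adjusted p = 0.00338), while Dusp1 and Per1, on the same list, were lower. On a list of AAV and mechanical injury 19 of 21 genes were tested and 11 were higher, beside 8 in untreated 5xFAD, and all groups had received a virus. Tlr9, a sensor of unmethylated DNA, rose by 1.39, Tlr2 by 2.77 and Hmox1, haem oxygenase, by 1.09, with edgeR adjusted p of 8.10e-06 or less. None of the 3 passed between treated and untreated 5xFAD. Of 18 endothelial genes 4 were higher, beside 6.53 percent of all genes, among them Ly6a (1.00 ± 0.17, edgeR adjusted p = 2.45e-04). Only 2 endothelial genes were higher when any 1 of male WT 2, 3 or 4, female WT 1, 4 or 5, male iβARK 3 or female iβARK 1 was left out. Meningeal, pericyte, oligodendrocyte precursor and choroid plexus lists had 0 calls by edgeR over all genes.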
